A study of Homo sapiens with 6 samples.

Results

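The genes of glycolysis and of the hypoxia response were followed across 6 RNA-seq libraries of SACC-83, a human tumour line established from adenoid cystic carcinoma of the salivary gland. The members are 37 genes, taken by symbol from the 27328 loci of the deposited FPKM table, and each symbol matched 1 locus. Levels are given in FPKM, fragments scaled by gene length and library total by the authors. The overexpression group holds 3 libraries of SACC-83 cells that overexpress circMYBL1. A circular RNA is a closed loop made by back-splicing, here of transcripts of MYBL1, a gene of the MYB transcription factor family. The vector group holds 3 libraries of SACC-83 cells with a vector control, whose genotype is labelled WT. The genotype labels of the overexpression libraries run on with the replicate number as circMYBL1, circMYBL2 and circMYBL3, whereas the series describes a single construct. The 3 libraries were treated as replicates on the strength of their titles. The promoter of the construct is not stated, nor is whether the libraries of a group came from separate cultures. The p-values therefore reflect variation among 6 libraries, possibly technical, and no more. Per the design text, the aim was a search for targets of circMYBL1.

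Glycolysis splits glucose into pyruvate through a chain of cytosolic enzymes, and lactate dehydrogenase turns pyruvate into lactate, which leaves the cell through monocarboxylate transporters. When oxygen is scarce, the prolyl hydroxylases of the EGLN family no longer mark the HIF alpha subunits for VHL-dependent destruction. HIF alpha then pairs with ARNT on promoters and enhancers that carry the core letters ACGTG or GCGTG, and raises glucose transporters, most glycolytic enzymes, and genes of mitophagy, pH control and collagen processing. Many tumour lines express these genes at high levels in ordinary culture as well.

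The libraries differed by replicate number at many more genes than by group. Each number is shared by 1 overexpression and 1 vector library, and the labels do not say what it stands for. MYBL1, which checks the labels, read 359, 44.0 and 2025 FPKM in overexpression replicates 1, 2 and 3, against 9.04, 7.15 and 10.3 FPKM in vector replicates 1, 2 and 3. Its log2 fold change was 5.04, which passed with the replicate number as a block (limma, adjusted p = 0.0225). FPKM of the gene cannot tell circular from linear transcripts. Loci with a value above 0 numbered 19886 and 20059 in the libraries numbered 2 and 18758 to 19653 in the other 4, and read depth is unknown from these values. Of the 5 epithelial markers, EPCAM was at 76.3 to 88.5 FPKM, KRT8 at 741 to 1123 FPKM and KRT18 at 534 to 679 FPKM, while KRT19 stayed at 0.243 to 1.10 FPKM. CDH1 read 20.1 and 21.3 FPKM in the libraries numbered 2 and 8.61 to 14.6 FPKM in the other 4. KIT, SOX10 and MYB, listed as markers of adenoid cystic carcinoma, were low. KIT was at 0 in every library, SOX10 at 0.120 to 0.814 FPKM and MYB at 0.688 to 1.21 FPKM. Of the 4 leukocyte markers PTPRC, CD3E and LYZ were at 0 in every library and CD68 was at 6.49 to 10.8 FPKM. Of the 5 fibroblast markers COL1A2 was at 0 in every library and PDGFRB, DCN and LUM stayed under 1 FPKM, while COL1A1 read 8.67 and 11.1 FPKM in the libraries numbered 2 and 2.95 to 4.57 FPKM in the other 4. The 3 endothelial markers summed to 1.38 and 1.71 FPKM in the libraries numbered 2, most of it PECAM1, and to 0.101 to 0.289 FPKM in the other 4. The 6 basal and myoepithelial markers, of which CNN1 and MYH11 stayed under 1 FPKM, summed to 418 and 494 FPKM in the libraries numbered 2 and to 131 to 178 FPKM in the other 4.

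Promoters of 4 members are shown because these textbook HIF targets carry the core letters ACGTG. They had the smallest p between the groups among such members, although none passed the test. RefSeq (GRCh38.p14) gave promoter windows for 33 of the 37 members; SLC2A3, HILPDA, NDRG1 and BNIP3L were not matched. The letters ACGTG were searched on both strands in the 250 bases before each start. The other core form, GCGTG, was not searched, so a window without a match may still hold it. They were found for 21 of these 33 genes and for 21.7% of all 27305 symbols with a window, and in 54.5% of 22 members with exactly 1 window against 18.4% of all such symbols. The members were chosen as glycolysis and hypoxia genes, so this share describes the choice, and a match is not a shown binding site. The p is that of group in the fit with replicate number as a further term, before adjustment. The 4 are BNIP3 (chr10:131981924-131982173, minus strand), ENO2 (chr12:6914330-6914579, plus strand), PGK1 (chrX:78103998-78104247, plus strand) and P4HA1 (chr10:73096867-73097116, minus strand). Each is written 5′ to 3′ on the gene's strand and ends at the base before the start. Only the ACGTG matches are in capitals, and GCGTG is left unmarked.
BNIP3: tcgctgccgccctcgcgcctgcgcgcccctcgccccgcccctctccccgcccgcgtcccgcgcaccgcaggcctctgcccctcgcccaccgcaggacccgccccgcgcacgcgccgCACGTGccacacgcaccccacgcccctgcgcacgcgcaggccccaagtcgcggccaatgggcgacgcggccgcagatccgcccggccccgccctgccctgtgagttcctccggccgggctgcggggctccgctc
ENO2: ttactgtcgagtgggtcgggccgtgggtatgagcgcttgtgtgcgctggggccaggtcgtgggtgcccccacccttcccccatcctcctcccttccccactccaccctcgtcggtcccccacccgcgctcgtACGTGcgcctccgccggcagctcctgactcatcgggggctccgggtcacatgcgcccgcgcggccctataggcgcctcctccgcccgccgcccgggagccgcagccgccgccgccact
PGK1: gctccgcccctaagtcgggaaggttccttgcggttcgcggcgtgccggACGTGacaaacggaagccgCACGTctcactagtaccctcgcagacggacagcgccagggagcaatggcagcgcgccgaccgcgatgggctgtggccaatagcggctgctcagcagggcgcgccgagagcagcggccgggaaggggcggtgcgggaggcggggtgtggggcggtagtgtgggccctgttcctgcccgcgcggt
P4HA1: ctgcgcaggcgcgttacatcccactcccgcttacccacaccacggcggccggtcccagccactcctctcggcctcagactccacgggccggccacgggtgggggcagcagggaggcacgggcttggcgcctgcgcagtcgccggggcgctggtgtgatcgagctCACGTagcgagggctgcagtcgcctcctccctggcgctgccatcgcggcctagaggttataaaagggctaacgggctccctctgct
BNIP3 holds its match 134 bases before the start, where the letters CACGTG read the same on both strands and also form an E-box. PGK1 holds 2 matches, on opposite strands, 202 and 183 bases before the start. ENO2 holds 1 match 118 bases and P4HA1 1 match 86 bases before the start. BNIP3 encodes a mitochondrial receptor for mitophagy, ENO2 the neuronal enolase, PGK1 phosphoglycerate kinase and P4HA1 a catalytic subunit of collagen prolyl 4-hydroxylase.

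In overexpression libraries most members lay slightly above the vector libraries, and no member passed the test. Genes with at least 1 FPKM in at least 3 libraries were tested, 12064 in all, which kept 36 of the 37 members and left out CA9. The difference of log2(FPKM + 1), which understates changes of low genes, was tested with limma across all genes, with group as the only term and Benjamini-Hochberg adjustment. Of the 36 members 0 were called at an adjusted p under 0.05, where 0% of all genes were called, 0 of 12064. At an unadjusted p under 0.05 the counts were 0 members and 65 genes, or 0.539% of all genes. With the replicate number as a block, 0 members were again called, where 12 genes were called, or 0.0995% of all genes. The log2 fold change was above 0 for 34 of 36 members, where 58.1% of all genes lay above 0. Its median over the members was 0.16, against 0.03 over all genes tested, and single values ran between -0.02 and 0.54. That median moved with the libraries kept. Without vector replicate 2 it was 0.04, and 23 members lay above 0, and without overexpression replicate 2 it was 0.26. Over all genes tested the medians in these fits were 0.04 and 0.004. Each of these fits keeps number 2 in 1 group only.

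The 3 pairs of same-numbered libraries were not alike. The median over the members was 0.21 in pair 1, 0.26 in pair 2 and -0.02 in pair 3, against 0.06, 0.04 and -0.03 over all genes tested. Higher in 3 of 3 pairs were 11 of 36 members, where 16.5% of all genes were, and lower in 3 of 3 pairs were 0 members, where 11.9% of all genes were. The 11 were SLC2A1, HK2, GAPDH, PGK1, ENO2, SLC16A3, EGLN1, P4HA1, BNIP3, BNIP3L and NDRG1. The overexpression libraries lay wholly below the vector range for 0 members, where 0.845% of all genes did. In the block fit 8 members had an unadjusted p under 0.05 with the overexpression libraries higher, where 4.81% of all genes did, and 0 with them lower, where 2.39% did. These 8 were BNIP3, NDRG1, ENO2, PGK1, P4HA1, SLC16A3, BNIP3L and HILPDA, and their adjusted p ran from 0.162 to 0.684 (limma).

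**Figure D1:**
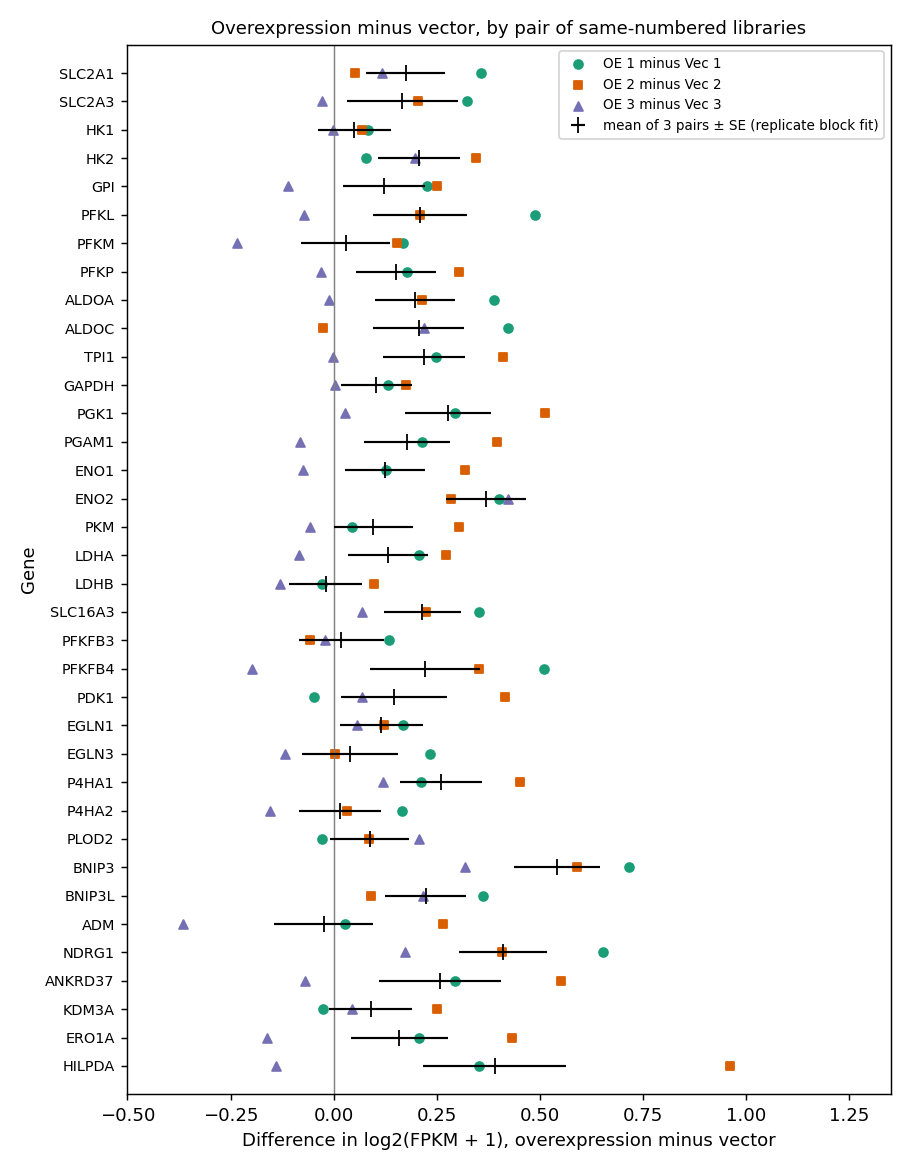
Difference in log2(FPKM + 1), overexpression minus vector, for the 36 tested members in rows by role; symbols give the 3 pairs of same-numbered libraries and the black tick with bar the mean of the pairs ± SE from the fit with replicate block. BNIP3 lies farthest right on average at 0.54, and the triangles of pair 3 lie near or below 0 for most members.

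Of all members, the mitophagy receptor BNIP3 had the largest mean difference, and BNIP3L alone had groups that did not overlap. BNIP3 read 46.8, 26.1 and 43.6 FPKM in overexpression replicates 1, 2 and 3, against 28.1, 17.0 and 34.7 FPKM in vector replicates 1, 2 and 3. Each overexpression library lay above the vector library of its own number, both libraries numbered 2 were low, and the groups overlapped. The ratios within the pairs were 1.67, 1.53 and 1.25, and the log2 fold change was 0.54 (limma, SE 0.32, adjusted p = 1.0; SE 0.10 and adjusted p = 0.162 with the block). It was 0.26 without vector replicate 2, and in the block fit without both libraries numbered 2 it was 0.52 and passed (limma, adjusted p = 0.0314), with 2 libraries per group. This was the 1 value that passed among 716 member values under the alternatives. The same fit called many more genes in all than the 12 of the block fit on every library, so the pass is not particular to BNIP3. The annotation holds 39 pseudogenes named after BNIP3, so reads could be split between copies and its value is uncertain. BNIP3L, the related receptor also known as NIX, read 20.7, 19.3 and 22.0 FPKM in overexpression replicates 1, 2 and 3, against 15.9, 18.0 and 18.8 FPKM in vector replicates 1, 2 and 3. It was the 1 member of 36 whose group ranges did not overlap, where 2.50% of all genes had overexpression libraries above the vector range. That count is near the share over all genes, so separate groups are not particular to the members. Its log2 fold change was 0.22 (limma, SE 0.13, adjusted p = 1.0; adjusted p = 0.683 with the block).

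Among the other hypoxia targets, NDRG1 and HILPDA had the largest differences. NDRG1, a stress- and hypoxia-responsive gene, read 95.1, 82.2 and 96.5 FPKM in overexpression replicates 1, 2 and 3, against 60.2, 61.7 and 85.5 FPKM in vector replicates 1, 2 and 3. Only vector replicate 3 reached the range of the overexpression libraries. The log2 fold change was 0.41 (limma, SE 0.18, adjusted p = 1.0; SE 0.11 and adjusted p = 0.376 with the block). HILPDA, a lipid droplet protein that inhibits the lipase ATGL, read 10.8, 12.2 and 8.94 FPKM in overexpression replicates 1, 2 and 3, against 8.24, 5.78 and 9.94 FPKM in vector replicates 1, 2 and 3. Its ratio was 2.11 in pair 2 and 0.899 in pair 3, so the pairs disagreed in direction. ERO1A, an oxidase of the endoplasmic reticulum, gave a log2 fold change of 0.16, the ankyrin repeat gene ANKRD37 0.26 and the histone demethylase KDM3A 0.09. ADM, the vasodilator peptide adrenomedullin, gave -0.02, with 57.1, 26.9 and 50.9 FPKM in overexpression replicates 1, 2 and 3, against 56.1, 22.2 and 65.8 FPKM in vector replicates 1, 2 and 3. CA9, the membrane carbonic anhydrase that is a standard marker of hypoxia, read 0.482, 0.221 and 0.362 FPKM in overexpression libraries, against 0, 0.322 and 0.300 FPKM in vector libraries. It stayed under 1 FPKM in all 6 libraries and was not tested.

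Glucose enters through SLC2A1 and SLC2A3, and SLC2A1 was the main transporter transcript of the pair. SLC2A1 read 70.4, 57.4 and 66.7 FPKM in overexpression replicates 1, 2 and 3, against 54.8, 55.4 and 61.5 FPKM in vector replicates 1, 2 and 3. Of the overexpression libraries, replicate 2 lay inside the vector range. Its log2 fold change was 0.17 (limma, SE 0.14, adjusted p = 1.0). SLC2A3 stayed between 1.49 and 2.17 FPKM in all 6 libraries, and SLC2A1 was 26.4 to 36.8 times as high on this per-length scale. Of the hexokinases, which trap glucose in the cell, HK1 was nearly level at 51.2 ± 2.52 FPKM in overexpression libraries and 49.4 ± 1.08 FPKM in vector libraries (SD, n = 3 each). HK2, the inducible hexokinase, read 17.8, 14.5 and 19.6 FPKM in overexpression replicates 1, 2 and 3, against 16.8, 11.2 and 17.0 FPKM in vector replicates 1, 2 and 3. The libraries numbered 2 were the lowest of their group for HK2 but not for HK1.

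The enzymes from GPI to PKM include the most abundant members. GAPDH, the glyceraldehyde-phosphate dehydrogenase often used as a reference gene, ranked 12 among all loci by mean FPKM, followed among the members by ENO1, PKM, LDHA and ALDOA. GAPDH read 3047, 2079.8 and 2699 FPKM in overexpression replicates 1, 2 and 3, against 2781, 1841 and 2692 FPKM in vector replicates 1, 2 and 3. ENO1, the main enolase, read 1826, 1119.9 and 1568 FPKM in overexpression replicates 1, 2 and 3, against 1673, 897 and 1650.1 FPKM in vector replicates 1, 2 and 3. In both genes replicate 2 was the lowest library of each group and the groups overlapped over most of their range. PKM, pyruvate kinase, read 1222, 979 and 1132 FPKM in overexpression replicates 1, 2 and 3, against 1185, 793 and 1179 FPKM in vector replicates 1, 2 and 3. TPI1, triosephosphate isomerase, read 855, 585 and 698 FPKM in overexpression replicates 1, 2 and 3, against 719, 439.5 and 699.5 FPKM in vector replicates 1, 2 and 3. PGK1 read 331, 229 and 297 FPKM in overexpression replicates 1, 2 and 3, against 269.8, 161 and 292 FPKM in vector replicates 1, 2 and 3. For PGK1 the overexpression library was higher in each pair, by a ratio of 1.02 in pair 3 and 1.43 in pair 2, and the log2 fold change was 0.28 (limma, SE 0.26, adjusted p = 1.0; SE 0.10 and adjusted p = 0.632 with the block).

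The other enzymes of this stretch gave smaller differences than PGK1, except ENO2. GPI, the glucose-phosphate isomerase, and the phosphofructokinases PFKL, PFKM and PFKP gave log2 fold changes of 0.12, 0.21, 0.03 and 0.15. The aldolases ALDOA and ALDOC gave 0.20 and 0.21, and PGAM1, phosphoglycerate mutase, gave 0.18. ENO2 had the largest difference among the enzymes. It read 11.1, 14.9 and 14.6 FPKM in overexpression replicates 1, 2 and 3, against 8.16, 12.0 and 10.6 FPKM in vector replicates 1, 2 and 3. The ratios within its pairs were 1.36, 1.24 and 1.37, close to each other, and the log2 fold change was 0.37 (limma, SE 0.19, adjusted p = 1.0; SE 0.10 and adjusted p = 0.388 with the block). ALDOA shares 1657 exon bases with AC093512.2, listed at 31.0 FPKM in overexpression replicate 2 and at 5.65 to 10.3 FPKM in the other 5 libraries. The annotation holds 62 pseudogenes named after GAPDH and 13 after PGAM1, which has the further copy PGAM4 at 1.58 to 3.08 FPKM, so these values are uncertain.

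Lactate dehydrogenase was expressed as both subunits, and the lactate exporter SLC16A3 averaged 131 ± 14.5 FPKM in overexpression libraries and 112 ± 6.32 FPKM in vector libraries (SD, n = 3 each). SLC16A3, the exporter also known as MCT4, read 139, 139.9 and 114 FPKM in overexpression replicates 1, 2 and 3, against 109, 119.7 and 109 FPKM in vector replicates 1, 2 and 3. Overexpression replicate 3 lay below vector replicate 2, so the groups overlapped. The log2 fold change was 0.22 (limma, SE 0.14, adjusted p = 1.0; adjusted p = 0.670 with the block). LDHA read 1143, 709.7 and 1053 FPKM in overexpression replicates 1, 2 and 3, against 990.4, 588 and 1115 FPKM in vector replicates 1, 2 and 3. LDHB, whose product favours the return of lactate to pyruvate, gave -0.02, with 738 ± 89.3 FPKM in overexpression libraries and 751 ± 114 FPKM in vector libraries (SD, n = 3 each).

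The 18 glycolysis and lactate members together held 2.75%, 2.05% and 2.54% of the summed FPKM in overexpression replicates 1, 2 and 3, against 2.56%, 1.75% and 2.57% in vector replicates 1, 2 and 3. The means of 2.45% ± 0.362 in overexpression libraries and 2.30% ± 0.468 in vector libraries (SD, n = 3 each) gave p = 0.7 in a 2-sided exact permutation test, which cannot go below 0.1 for 3 against 3. The same test on the summed FPKM of the other members and on 10 ratios between related members gave adjusted p of 0.9 throughout, over 12 quantities. That test does not use the pairing by number. Within the pairs, 5 of the 12 were higher in overexpression in 3 of 3, namely the sum of the other members and the LDHA to LDHB, PFKP to PFKM, P4HA1 to P4HA2 and BNIP3 to BNIP3L ratios. The sum of the other members was 509, 455 and 505 FPKM in overexpression replicates 1, 2 and 3, against 405, 371 and 495 FPKM in vector replicates 1, 2 and 3. For each of these 5 a 2-sided exact permutation test that keeps the pairs, added after the data were seen, gave p = 0.25, the smallest that 3 pairs allow. Any quantity higher in 3 of 3 pairs gives this p, so it adds nothing to the count of 5. The same paired test gave p of 0.5 or more for each of the other quantities.

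The regulators of flux, the oxygen sensors and the collagen-modifying enzymes complete the members. PFKFB4, which sets the level of the activator fructose 2,6-bisphosphate, read 23.8, 17.6 and 21.2 FPKM in overexpression replicates 1, 2 and 3, against 16.4, 13.6 and 24.4 FPKM in vector replicates 1, 2 and 3. It shares 289 exon bases with UCN2 on the same strand, so its value is uncertain. Its relative PFKFB3 gave a log2 fold change of 0.02, and PDK1, the kinase that shuts pyruvate out of the citrate cycle, gave 0.15. EGLN1, the main oxygen-sensing prolyl hydroxylase, read 7.75, 6.07 and 7.90 FPKM in overexpression replicates 1, 2 and 3, against 6.78, 5.50 and 7.56 FPKM in vector replicates 1, 2 and 3. EGLN3, the family member most induced by hypoxia, gave 0.04. P4HA1 read 50.0, 45.0 and 53.1 FPKM in overexpression replicates 1, 2 and 3, against 43.1, 32.7 and 48.8 FPKM in vector replicates 1, 2 and 3. It was higher in each pair, with a log2 fold change of 0.26 (SE 0.18, limma, adjusted p = 1.0; SE 0.10 and adjusted p = 0.632 with the block). P4HA2, the alternative catalytic subunit, gave 0.01, and the lysyl hydroxylase PLOD2 gave 0.09. PFKM, SLC16A3, ANKRD37, CA9 and BNIP3L overlap exons of SENP1, CSNK1D, UFSP2, ARHGEF39 and PNMA2 on the opposite strand. Since the use of strand in counting is not stated, the values of these members are uncertain too. ARHGEF39 read 2.38 to 4.74 FPKM, above CA9 in every library.

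**Figure D2:**
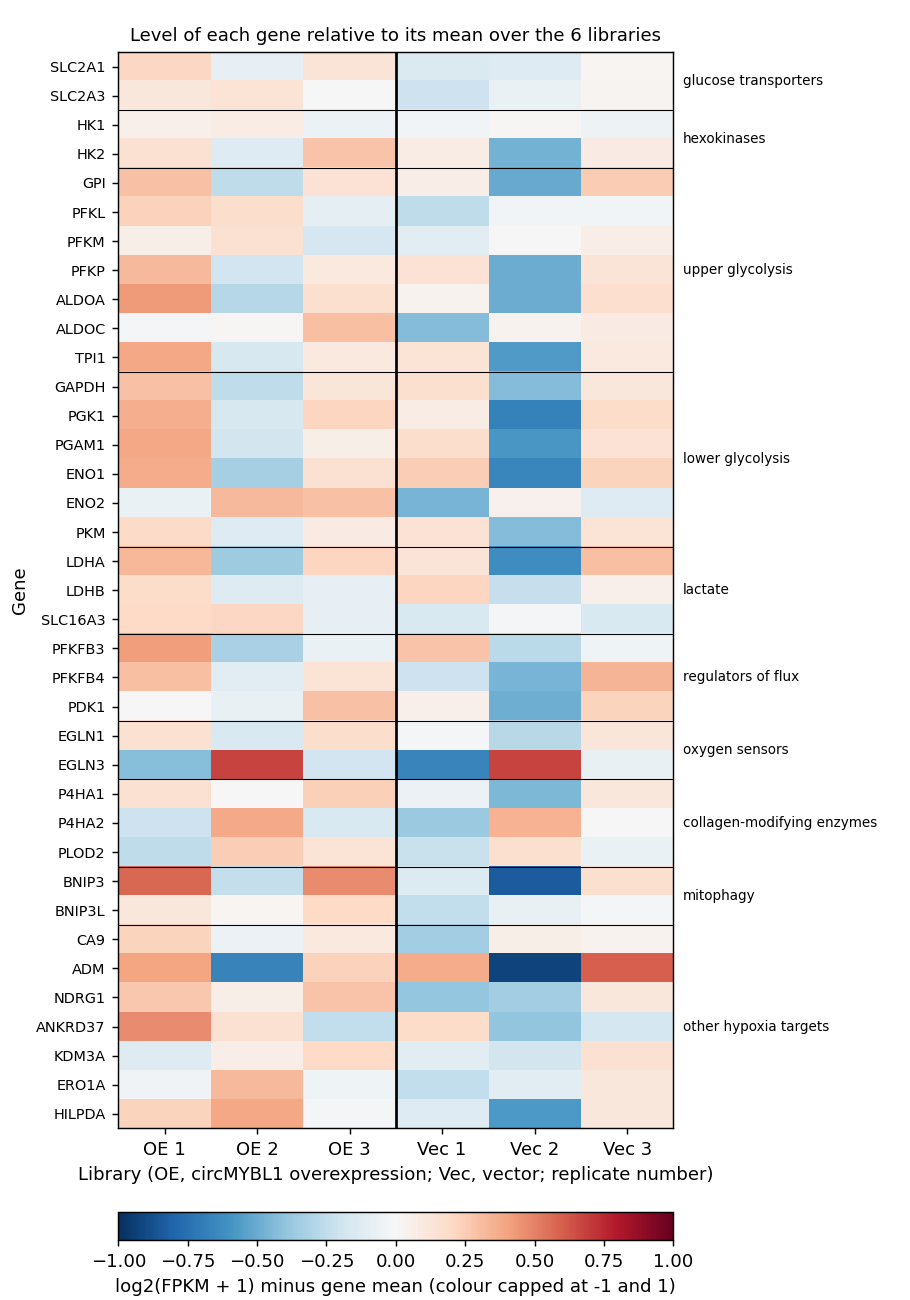
Level of each of the 37 members (rows, by role) in the 6 libraries (columns), as log2(FPKM + 1) minus the gene's mean over all libraries, where red is above and blue below that mean. Vector replicate 2 is blue for most glycolysis enzymes, for BNIP3 and for ADM, overexpression replicate 2 is a paler blue for many of the same genes, and EGLN3 and P4HA2 are red in both libraries numbered 2.

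Across replicate numbers the members changed widely. In a limma fit with group and replicate number as terms, an F-test of the number called 20 of 36 members, where 46.5% of all genes were called. That share is near the background, so number dependence is not particular to these genes. The direction was uneven: 13 members were lower at number 2 than at both other numbers, each at an adjusted p under 0.05 (limma), where 13.3% of all genes were, and 2 were higher, where 18.8% of all genes were. For number 2 minus number 1 alone, 15 members were lower, where 20.7% of all genes were, and 4 higher, where 29.5% were. For number 2 minus number 3 alone, 17 were lower, where 15.3% of all genes were, and 2 higher, where 20.8% were. Between numbers 3 and 1, 0 members were called, where 0.448% of all genes were higher at 3 and 0.0995% lower. Of the 18 glycolysis and lactate members 11 were lower at number 2 than at both others, and 0 were higher. Their median difference was -0.50 for number 2 minus number 1 and -0.46 for number 2 minus number 3, against 0.09 and 0.05 over all genes tested. The 11 were HK2, GPI, PFKP, ALDOA, TPI1, GAPDH, PGK1, PGAM1, ENO1, PKM and LDHA, which include the most abundant member at each step except the hexokinases, where HK1 was higher. HK1, PFKL, PFKM, ALDOC and SLC16A3 were not called by the F-test, and LDHB and ENO2 differed only between numbers 2 and 1.

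**Figure D3:**
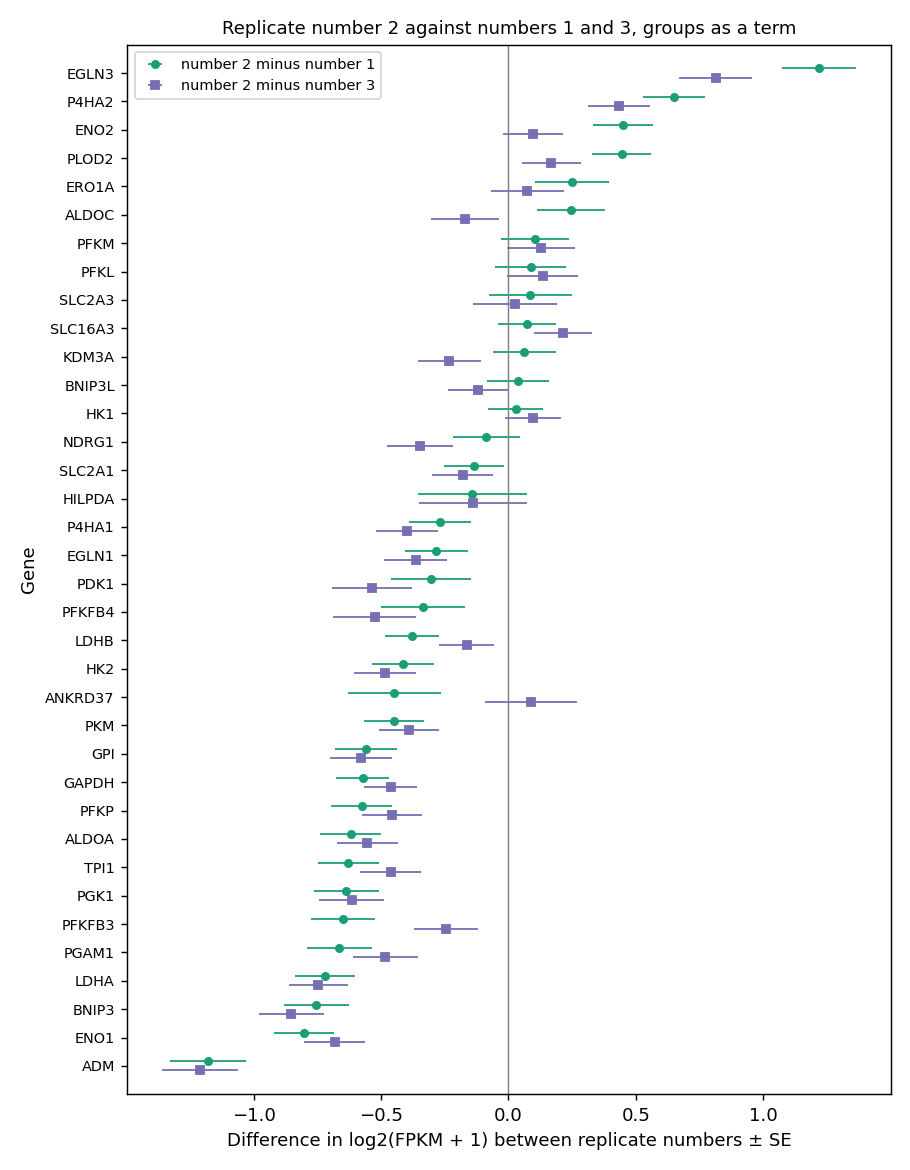
Difference in log2(FPKM + 1) for number 2 minus number 1 (circles) and number 2 minus number 3 (squares) with SE, for the 36 tested members in rows, from the fit with group as a further term. ADM lies lowest at -1.18 and -1.21 and EGLN3 highest at 1.22 and 0.81, and most glycolysis enzymes lie left of 0 in both.

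Single members differed by up to 2.84-fold between numbers. ENO1 averaged 1009 FPKM over the 2 libraries numbered 2, against 1749.7 FPKM at number 1 and 1609 FPKM at number 3 (differences -0.80 and -0.68, SE 0.12, limma, adjusted p = 0.000492 and 0.00209). LDHA averaged 649 FPKM at number 2, against 1067 FPKM at number 1 and 1084 FPKM at number 3 (-0.72 and -0.75, limma, adjusted p = 0.000854 and 0.00124). ADM averaged 24.5 FPKM at number 2, against 56.6 FPKM at number 1 and 58.3 FPKM at number 3 (limma, adjusted p = 0.000203 and 0.000360). BNIP3 averaged 21.6 FPKM at number 2, against 37.5 FPKM at number 1 and 39.2 FPKM at number 3 (-0.75 and -0.85, limma, adjusted p = 0.00102 and 0.000956). All 4 were low at number 2 in both groups. The same held for the shared steps of the chain. GPI averaged 107 FPKM at number 2, against 157 FPKM at number 1 and 159 FPKM at number 3. ALDOA averaged 613 FPKM at number 2, against 948 FPKM at number 1 and 898 FPKM at number 3. PGAM1 averaged 192 FPKM at number 2, against 303 FPKM at number 1 and 266 FPKM at number 3. HK2 and PFKP, which act at the regulated upper steps, averaged 12.9 and 64.1 FPKM at number 2, against 17.3 and 95.7 FPKM at number 1 and 18.3 and 87.9 FPKM at number 3.

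A pair of hypoxia targets ran the other way. EGLN3 read 7.22 and 7.21 FPKM in overexpression and vector replicate 2, against 2.83 and 3.49 FPKM in overexpression replicates 1 and 3 and 2.26 and 3.87 FPKM in vector replicates 1 and 3. Its mean of 7.22 FPKM at number 2 was 2.84 times that at number 1 (difference 1.22, SE 0.14, limma, adjusted p = 0.000144). P4HA2 averaged 34.1 FPKM at number 2, against 21.4 FPKM at number 1 and 25.0 FPKM at number 3 (0.65 and 0.43, limma, adjusted p = 0.00181 and 0.0203). PLOD2 and ENO2 were higher at number 2 than at number 1 only (0.44 and 0.45, limma, adjusted p = 0.0103 and 0.0106). Of the 18 tested members outside glycolysis and lactate, 2 were lower at number 2 than at both others, 2 were higher, and 14 did not pass both tests in the same direction. The shares over all genes were 13.3% lower and 18.8% higher, and these counts lie near or under them.

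These counts depend on some choices. Without vector replicate 2 the F-test called 9 members, and 6 were lower at number 2 than at both others, and without vector replicate 3 that count was 5. Over all genes the count lower at number 2 was 805 without vector replicate 2 and 759 without vector replicate 3, against 1610 with all 6 libraries, so the drop is not particular to the members. Without a filter on low values the F-test called 5 members, and 2 members (ADM and BNIP3) were lower at number 2 than at both others, as were 846 of 23155 genes. Without that filter or without vector replicate 2, the F-test also called fewer genes in all than the 5605 of the main fit. The drop in members called by the F-test is therefore not particular to them. With quantile scaling 12 were lower, where GAPDH, ENO1, TPI1 and PKM did not pass both tests and EGLN1, PDK1 and PFKFB3 did, and 3 were higher, with SLC16A3 besides EGLN3 and P4HA2. With trimmed mean factors 20 were lower and 1 higher, and the split over all genes was 2722 lower and 1569 higher, against 1610 lower and 2271 higher as deposited. The median of all genes for number 2 minus number 1 was -0.09 with that scaling and 0.09 as deposited. Quantile scaling gave 2058 lower and 1851 higher over all genes. Relative to the median of all genes, the median of the 18 glycolysis and lactate members was -0.59 as deposited, -0.62 with trimmed mean factors and -0.28 with quantile scaling (number 2 minus number 1). All 13 members named as lower kept their sign in both differences under each of the pseudocounts, filters and scalings tried.

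Basal and myoepithelial markers were higher in both libraries numbered 2, except CNN1, which stayed under 1 FPKM. KRT5 read 347 and 412 FPKM in overexpression and vector replicate 2, against 94.9 to 142 FPKM in the other 4 libraries. TP63 read 25.1 and 33.7 FPKM in overexpression and vector replicate 2, against 11.7 to 15.3 FPKM in the other 4. KRT14 read 37.5 and 41.1 FPKM in overexpression and vector replicate 2, against 14.8 to 19.2 FPKM in the other 4. Their part in the lower glycolysis transcripts was not tested. In bulk libraries fewer cells of a type and less RNA per cell cannot be told apart. The glycolysis and lactate members had a median GC content of 53.2% and a median longest transcript of 2798 bases, against 48.3% and 3659 bases over all genes with a value. With GC content and length fitted out of every library, a step added after the data were seen, their median differences were -0.47 and -0.42, against 0.06 and 0.04 over all genes. In that fit 15 members were lower at number 2 than at both others, as were 1766 of 11166 genes.

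**Figure D4:**
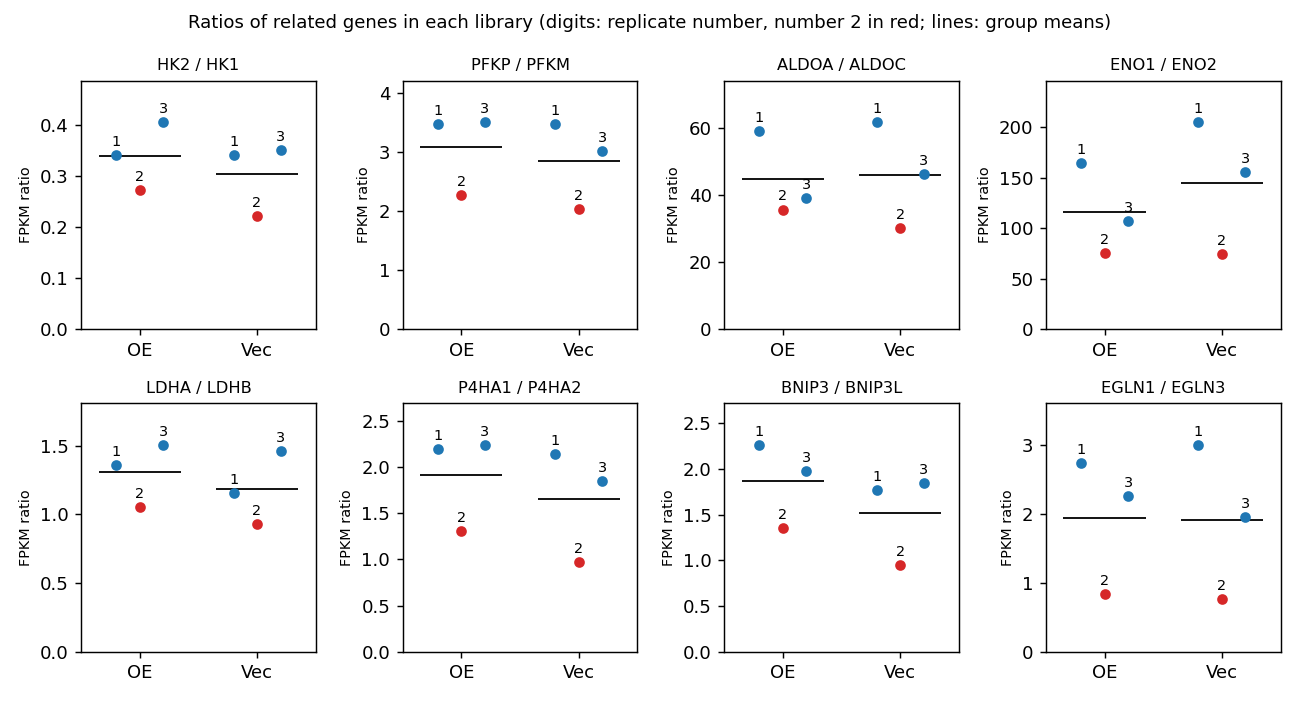
FPKM ratio of related genes within each library (y axes from 0), overexpression left and vector right, with the replicate number above each point and number 2 in red; lines give group means. In all 8 panels the library numbered 2 is the lowest of its group, and the 2 groups overlap.

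Ratios between genes of the same library do not change when a library is multiplied by 1 factor, though quantile scaling does change them. The LDHA to LDHB ratio was 1.36, 1.05 and 1.51 in overexpression replicates 1, 2 and 3, against 1.16, 0.933 and 1.46 in vector replicates 1, 2 and 3. The ENO1 to ENO2 ratio was 165, 75.4 and 108 in overexpression replicates 1, 2 and 3, against 205, 74.6 and 155 in vector replicates 1, 2 and 3. For ENO1 to ENO2 each overexpression library but replicate 2 lay below its vector partner. The P4HA1 to P4HA2 ratio was 2.20, 1.30 and 2.24 in overexpression replicates 1, 2 and 3, against 2.14, 0.968 and 1.85 in vector replicates 1, 2 and 3. The EGLN1 to EGLN3 ratio was 0.841 and 0.763 in overexpression and vector replicate 2 and 1.95 to 3.01 in the other 4 libraries, so that EGLN3 was the higher of the 2 transcripts at number 2 only.

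No listed gene that controls HIF passed between the groups. Of 16 listed genes of the HIF pathway 14 were tested and 0 passed in either direction, with or without the block, and their median log2 fold change was -0.00. HIF1A, the oxygen-regulated subunit, read 60.9, 80.7 and 68.4 FPKM in overexpression replicates 1, 2 and 3, against 69.0, 89.0 and 72.3 FPKM in vector replicates 1, 2 and 3. It was lower in each overexpression library than in its vector partner (log2 fold change -0.13, SE 0.17, limma, adjusted p = 1.0). ARNT, its partner, gave -0.19, and RBX1, a subunit of the VHL ubiquitin ligase, gave 0.25. By replicate number 5 of the 14 were called by the F-test, where 46.5% of all genes were. At number 2, ARNT and VHL were higher than at both others, where 18.8% of all genes were. ELOC, a VHL partner, was lower, where 13.3% of all genes were. HIF1A and RBX1 differed only between numbers 2 and 1. ARNT averaged 11.7 FPKM at number 2, against 6.35 FPKM at number 1 and 7.91 FPKM at number 3 (limma, adjusted p = 0.000671 and 0.0110).

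Hypoxia targets outside the members gave a mixed picture of the same kind. Of 31 listed genes 27 were tested and 0 passed for the group in either fit, with 20 above 0, where 58.1% of all genes were, and a median log2 fold change of 0.08, against 0.03 over all genes. TMEM45A, a transmembrane protein gene induced by hypoxia, read 26.0, 13.2 and 21.3 FPKM in overexpression replicates 1, 2 and 3, against 16.3, 8.28 and 15.7 FPKM in vector replicates 1, 2 and 3. It was higher in each pair and gave 0.56 (SE 0.33, limma, adjusted p = 1.0; SE 0.10 and adjusted p = 0.107 with the block), close to BNIP3 in size. ANGPTL4, an inhibitor of lipoprotein lipase, gave 0.51 and the cytokine MIF 0.23, neither of which passed. By number 17 of the 27 were called, where 46.5% of all genes were. At number 2, 7 were lower than at both others, where 13.3% of all genes were, and 2 were higher, where 18.8% were. VEGFA, the angiogenic growth factor and a further standard HIF target, was among the 2 that were higher, at 56.4 FPKM at number 2, against 33.9 FPKM at number 1 and 37.0 FPKM at number 3 (limma, adjusted p = 0.00112 and 0.00546).

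The neighbouring pathways of carbon metabolism held no called gene between the groups in either fit. Over all genes, 13.3% were lower at number 2 than at both others and 18.8% were higher. Of 18 further glycolysis genes 7 were tested, of which 1 was lower at number 2 than at both others and 0 were higher. The lower gene was TIGAR, a phosphatase that lowers fructose 2,6-bisphosphate (5.74 FPKM, against 10.7 FPKM at number 1 and 9.92 FPKM at number 3, limma, adjusted p = 0.000649 and 0.00234). Of 28 genes of pyruvate entry and the citrate cycle 27 were tested, with a median log2 fold change of 0.07. Of these 27, 1 was lower at number 2 than at both others, namely CS, the citrate synthase. SDHA, SUCLA2, PDK2 and PDK3, 4 of the 27, were higher. Both counts lie under the shares over all genes. PDP1, the phosphatase that switches pyruvate dehydrogenase on, read 9.18, 18.1 and 16.1 FPKM in overexpression replicates 1, 2 and 3, against 11.5, 23.5 and 19.1 FPKM in vector replicates 1, 2 and 3. It was lower in each pair, with a log2 fold change of -0.30 (SE 0.33, limma, adjusted p = 1.0; SE 0.09 and adjusted p = 0.521 with the block). The 8 genes of the pentose phosphate pathway had a median of -0.01, with 1, RPIA, lower and 1, H6PD, higher at number 2 than at both others. Of 7 gluconeogenesis genes 3 were tested, and PC, the mitochondrial pyruvate carboxylase, averaged 15.0 FPKM at number 2, against 4.26 FPKM at number 1 and 6.14 FPKM at number 3 (limma, adjusted p = 2.04e-05 and 0.000208).

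The ACGTG letters were not confined to the members that were lower at number 2. Of the 13 members that were lower at number 2, 9 held a match in the 250 bases before a start, as did 0 of the 2 that were higher and 12 of the 18 others with a window. These 18 include LDHB, ENO2, PFKFB3, PDK1 and PLOD2, which the F-test of the number also called, and the shares were not tested against each other. ADM, ENO1, PGAM1 and PKM were lower without an ACGTG match in these windows, where GCGTG was not searched. For LDHA, 1 of its 2 promoter windows held 3 matches.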

How the data were processed

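Purified mRNA of 6 SACC-83 samples, 3 per group by their titles, was sequenced and summarised by the authors as FPKM per locus in 1 deposited table. Alignment used HISAT2 and the build was GRCh38, per the submitters' processing notes. Which program counted reads, on which gene models and whether by strand, is not given in the sources used here. Whole reads could not be recovered from the deposited FPKM values, so depth is unknown, and the count tests planned for such data were replaced by limma.

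From these, log2(FPKM + 1) was computed, genes with at least 1 FPKM in at least 3 libraries were kept, and limma 3.58.1 in R 4.3.3 was fitted across all genes with an intensity trend, first with group alone and then with replicate number as a block. Calls used a Benjamini-Hochberg adjusted p under 0.05. Same-numbered libraries deviated together from their group means, with correlations of 0.725, 0.881 and 0.529 for numbers 1, 2 and 3. Overexpression replicate 3 with vector replicate 1 gave 0.424, and overexpression replicate 1 with vector replicate 3 gave 0.412. Number 2 with either other number gave negative values. The numbers were taken to pair the libraries, although the labels do not say what they mark and numbers 1 and 3 are told apart less clearly than number 2. The procedure was tested on simulated data.

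The members and all gene lists were chosen with earlier results of these data known. Members given by library were those with separate groups, the 6 with the smallest p for group in the block fit, the 4 with the smallest p for number, the 4 with the highest mean and 1 per role; other lists gave up to 3 genes by the block fit. VEGFA, VHL, ELOC, CS, SDHA, SUCLA2, PDK2, PDK3, RPIA, H6PD and the further members with values by library or number were named after their values were seen. Alternatives were other pseudocounts, filters and scalings, no variance trend, each library left out, the block, and a loess correction for gene length and GC content, chosen after seeing the data. Ratios and sums per library were compared by 2-sided exact permutation.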

Additional observations from a re-analysis of the deposited data

How the results depend on the processing

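The number of genes called between overexpression and vector was 0 with group as the only term and 12 with the replicate block, where 0 members were called. The paired fit called 7 genes together with the GC and length correction, which was added after the data were seen. It called 14, 148 and 22 genes without both libraries numbered 1, 2 and 3, and 1 member, BNIP3, without those numbered 2. With 1 library left out and group as the only term it was 0 to 1 genes and 0 members. By replicate number, 3389 genes and 5 members were called without a filter on low values, where more low genes were tested. Leaving out 1 library gave 3663 to 6174 genes and 9 to 23 members, both lowest without vector replicate 2. The planned count tests were not run because the deposited table holds FPKM.

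No member passed between the groups in the fits with group as the only term, so a change of sign concerns values that were not called, and its cause was not tested. With quantile scaling the log2 fold change was -0.007102 for HK1, -0.01601 for PFKM, -0.01735 for P4HA2 and -0.004406 for PFKFB3. With TPM scaling it was -0.005814 for P4HA2 and -0.0018 for PFKFB3, and with trimmed mean factors -0.005469 for P4HA2 and -1.758e-05 for PFKFB3. The GC and length correction gave -0.01087 for PFKFB3 with and without the block. The paired fit without number 1 gave -0.05709 for EGLN3, -0.06083 for P4HA2, -0.03872 for PFKFB3 and -0.04039 for PFKM. Without number 2 it gave -0.0333 for PFKM and -0.007343 for PKM, and without number 3 it gave 0.1455 for ADM and 0.03529 for LDHB.

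Leaving out 1 library in turn changed the sign of some members, with these ranges of the log2 fold change. They were -0.4952 to 0.3016 for ADM, -0.002552 to 0.3882 for ALDOA, -0.29 to 0.3875 for EGLN3, -0.1722 to 0.3223 for ENO1, -0.08663 to 0.2583 for GAPDH and -0.1002 to 0.2805 for GPI. They were -0.1474 to 0.3408 for LDHA, -0.1396 to 0.08125 for LDHB, -0.1703 to 0.1914 for P4HA2, -0.06219 to 0.2929 for PDK1, -0.186 to 0.1872 for PFKFB3 and -0.04049 to 0.1205 for PFKM. They were -0.05981 to 0.2848 for PFKP, -0.06917 to 0.3131 for PGAM1, -0.0956 to 0.1943 for PKM, -0.01427 to 0.2366 for PLOD2 and -0.01045 to 0.3531 for TPI1. Of 716 member values under all alternatives, 47 had the other sign and 1 passed the threshold anew. With 3 libraries per group and unknown depth, differences of this size could not be told from the spread between libraries.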
